A study of Mus musculus with 6 samples.

Results

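The genes described here are 31 genes of DNA replication and the G1/S step of the cell cycle. They were chosen by name, as the symbols of a fixed list of licensing, fork, nucleotide synthesis and E2F genes, out of 29872 gene symbols in the deposited count table. Every one of the 31 was found in the table and every one had enough counts to be tested. Bulk RNA sequencing compared 3 libraries labelled CML (chronic myeloid leukaemia) with 3 labelled WT (wild type). All 6 came from untreated mouse bone marrow of the C57BL/6 background, from cells that were expanded ex vivo and sorted as negative for lineage markers and positive for Sca1, cKit and CD150, a surface profile used to enrich blood stem cells. What distinguishes the CML cells (the transgene, its promoter, the time of induction) is not stated in the labels, nor are the age of the mice, the culture conditions, the order of sort and expansion or any pooling of animals. Whether the replicates are separate mice or cultures is not stated either. The p-values therefore reflect variation among these 6 libraries, which may be technical.

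Before a cell copies its genome, the origin recognition complex with Cdc6 and Cdt1 loads the MCM helicase onto DNA, a step called licensing, which takes place in G1. Cyclin E with its kinase, and the E2F transcription factors that are freed from the retinoblastoma protein, then move the cell into S phase. There Cdc45 and the GINS complex switch the helicase on, polymerases copy the strands behind it, and ribonucleotide reductase and thymidylate synthase supply the deoxynucleotides. E2F factors switch on many of these genes together, and the mRNAs are commonly read as a sign of how many cells of a population are cycling. Blood stem cells in the marrow are mostly quiescent, whereas cells expanded in culture divide. In bulk RNA, fewer cells of a type and less RNA per cell cannot be told apart.

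The stretch of DNA just before the start of such genes often holds a short E2F site. Promoters were taken from RefSeq (GRCm38.p6), which matched 26 of the 31 genes, and the 250 bases before the start were searched on both strands for TTTCCCGC, TTTCGCGC, TTTGCCGC and TTTGGCGC. At least 1 of these words stood in 6 of the 26 promoters (23.1%), those of Orc1, Cdc6, Mcm5, Mcm6, Mcm7 and Pola1. For Cdc6, Mcm7 and E2f1 the RefSeq start lay inside the gene as annotated by GENCODE, and so did all of the bases searched. The words of Cdc6 and Mcm7 thus lie within those annotated genes, and the bases before the GENCODE start of Cdc6, Mcm7 and E2f1 were not searched. The same search found a word in 517 of 27025 promoters of all genes (1.91%) and in 365 of 10233 promoters of the genes tested here (3.57%). The motif CCAAT, bound by NF-Y, was found on either strand in 16 of the 26 (61.5%), against 34.5% of all promoters and 37.2% of those of tested genes. The words TTTGAA and TTCGAA, known from cell cycle genes that act in G2 and mitosis, stood in 4 of the 26 (15.4%). This lay between the 17.4% of all promoters and the 13.2% of those of tested genes. A match describes the letters only. Below are the 250 bases before the start of 4 genes, 5′ to 3′ on the gene's own strand, with the E2F words in capitals. Mcm5 (chr8:75109259-75109508, plus strand) and Mcm6 (chr1:128359706-128359955, minus strand) show genes with such words whose mRNA did not pass the test between the groups. Tyms (chr5:30073626-30073875, minus strand) and Rfc4 (chr16:23127731-23127980, minus strand) show promoters without them, of a gene that rose and of one that fell.
Mcm5: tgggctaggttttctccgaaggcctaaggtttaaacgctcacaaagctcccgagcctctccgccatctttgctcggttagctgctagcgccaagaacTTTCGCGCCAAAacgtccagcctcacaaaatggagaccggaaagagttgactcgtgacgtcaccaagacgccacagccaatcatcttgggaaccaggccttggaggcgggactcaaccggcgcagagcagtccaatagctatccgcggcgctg
Mcm6: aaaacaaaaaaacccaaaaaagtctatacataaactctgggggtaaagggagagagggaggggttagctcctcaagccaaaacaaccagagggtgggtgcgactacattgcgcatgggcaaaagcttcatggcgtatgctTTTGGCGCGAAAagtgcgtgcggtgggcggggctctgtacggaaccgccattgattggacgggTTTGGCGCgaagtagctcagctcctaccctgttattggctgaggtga
Tyms: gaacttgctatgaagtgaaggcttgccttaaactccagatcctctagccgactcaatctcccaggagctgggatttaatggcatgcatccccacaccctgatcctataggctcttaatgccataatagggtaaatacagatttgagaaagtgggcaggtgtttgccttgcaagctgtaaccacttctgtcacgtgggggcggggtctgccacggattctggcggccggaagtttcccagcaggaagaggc
Rfc4: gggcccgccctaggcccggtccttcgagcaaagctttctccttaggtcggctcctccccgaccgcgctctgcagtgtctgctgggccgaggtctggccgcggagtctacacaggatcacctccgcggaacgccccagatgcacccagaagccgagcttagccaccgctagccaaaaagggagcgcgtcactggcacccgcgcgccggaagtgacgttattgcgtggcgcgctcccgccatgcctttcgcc
In Mcm5 the words begin at -153 and -149 from the start and overlap within a single stretch read on both strands. Mcm6 has such a stretch at -110 and -106, and a further word at -47. None of the 6 genes that hold an E2F word passed the test between CML and WT, beside 17.4% of all genes tested that passed in either direction. With so few genes, this count does not show whether such a word goes with an unchanged level.

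Counts per library summed to between 13323469 and 17926847, and a single one of the 31 genes had between 93 and 9198 counts in a library. Levels are given as CPM (counts scaled to a common library size, here with the trimmed mean of M-values, TMM), as mean ± SD over 3 libraries of a group, and differences as the fitted log2 fold change of CML over WT ± SE from edgeR, with p-values adjusted over all 16221 genes tested. A gene was called at an adjusted p below 0.05. Among all genes tested, 2820 (17.4%) were called, 10.2% higher and 7.20% lower in CML. Libraries of the same group had Spearman correlations of 0.983 to 0.992, against 0.951 to 0.970 between groups. The genes of the sort gate gave Kit at 309 ± 100.5 in CML against 292 ± 9.05 CPM in WT (adjusted p = 0.842, edgeR), Ly6a, which encodes Sca1, at 106 ± 57.5 in CML against 52.2 ± 12.1 CPM in WT (adjusted p = 0.173), and Slamf1, which encodes CD150, at 14.2 ± 4.35 in CML against 24.7 ± 6.61 CPM in WT (adjusted p = 0.0470), a call lost under 7 of the 15 alternatives (0.0520 to 0.158), among them those without CML replicate 1 or 3 or WT replicate 1 or 2. Markers of several other blood cells moved with the groups. Mast cell and basophil markers summed to 2233 to 7781 CPM in CML and 194 to 388 CPM in WT (9 of 15 higher in CML), and monocyte markers to 362 to 430 CPM and 238 to 296 CPM (5 of 9 higher). Neutrophil markers overlapped, at sums of 167 to 254 CPM in CML and 136 to 248 CPM in WT, with 0 of 8 called. Lymphoid markers summed to 50.2 to 61.2 CPM in CML and 14.7 to 20.4 CPM in WT (3 of 4 higher), and 3 of 7 dendritic cell markers were higher, while their sums overlapped. Erythroid markers summed to 151 to 279 CPM in CML and 468 to 588 CPM in WT (1 higher and 3 lower of 7). The median log2 fold change of these 7 was 0.16, so the fall of the sum did not hold for the typical gene. Megakaryocyte markers summed to 130 to 208 CPM in CML and 278 to 302 CPM in WT (1 higher and 2 lower of 9). Sums cover all listed markers, 12 erythroid and 12 lymphoid among them, while calls cover only those with enough counts to be tested. Stem cell markers summed to 1120 to 1320 CPM in CML and 1314 to 1459 CPM in WT, with 5 of 11 lower. The mast cell proteases Mcpt1 and Mcpt2 were at 0 counts in all WT libraries, and no marker was at 0 in all 6. The part of these cells in the values that follow was not tested.

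Of the 31 genes, 3 rose in CML (Tyms, Lig1 and Ccne1), 2 fell (Rfc4 and Tipin) and 26 did not pass the test. The 5 called genes are 16.1% of the 31, near the 17.4% of all genes that were called in either direction. The summed level of the 31 genes was 4290, 4103 and 4340 CPM in CML replicates 1, 2 and 3 and 4169, 4092 and 4153 CPM in WT replicates 1, 2 and 3, so the ranges of the groups overlapped. The median log2 fold change was 0.03, beside -0.0043 for all genes tested, with 18 genes above 0 and 13 below. The sizes were small: 29 of the 31 (93.5%) had a fitted log2 fold change between -0.5 and 0.5, against 74.5% of all genes tested. For 30 of the 31 the 95% interval lay between -1 and 1, which held for 70.6% of all genes, and the exception was Ccne1. Among the 26 genes that were not called, fold changes ran from -0.26 to 0.39 on the log2 scale and the bounds of their intervals from -0.54 to 0.67. The library values of the groups did not overlap for 9 genes that were higher and 5 that were lower in CML, 45.2% of the 31, against 35.0% of all genes.

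**Figure D1:**
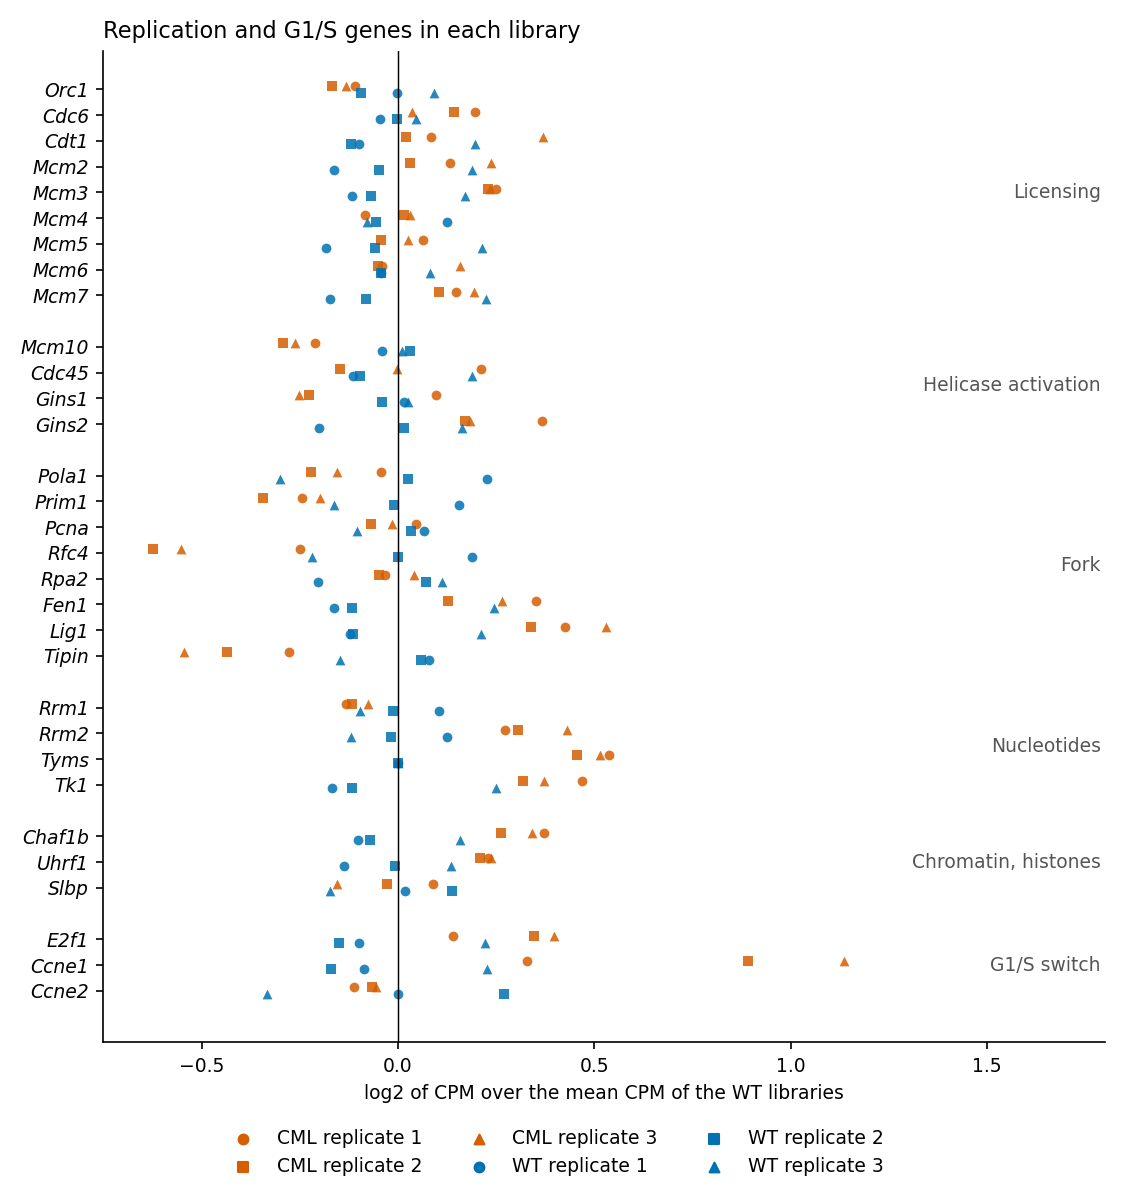
Level of each of the 31 genes in each of the 6 libraries, as the log2 ratio of its CPM to the mean CPM of the 3 WT libraries (x axis), grouped by role (y axis); orange marks CML, blue marks WT, and the symbol shape gives the replicate number. Most points lie between -0.5 and 0.5, and CML replicates 2 and 3 of Ccne1 lie furthest to the right.

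The licensing genes differed little between the groups. None of the 9 was called by edgeR, DESeq2 or limma-voom, and 0 had an unadjusted p below 0.05. The interval of each ended within 0.5 of 0 on either side, and the fold changes ran from -0.14 for Orc1 to 0.24 for Mcm3 on the log2 scale. Mcm6, a subunit of the ring-shaped MCM helicase, was at 467, 464 and 536 CPM in CML replicates 1, 2 and 3 and 466, 466 and 509 CPM in WT replicates 1, 2 and 3. CML replicate 3 and WT replicate 3 were both high, the other 4 libraries were within 4 CPM of each other, and the groups overlapped, with a log2 fold change of 0.03 ± 0.12 and a 95% interval of -0.23 to 0.28. Mcm4 was at 256 ± 10.9 in CML against 259 ± 20.5 CPM in WT (-0.01 ± 0.11) and Mcm5 at 218 ± 8.15 in CML against 215 ± 30.97 CPM in WT (0.02 ± 0.12), and the log2 interval of each ended within 0.3 of 0 on either side. Mcm3 was the 1 MCM subunit whose groups did not overlap, at 261, 258 and 258 CPM in CML replicates 1, 2 and 3 and 202, 209 and 247 CPM in WT replicates 1, 2 and 3. The 3 CML values lay within 4 CPM of each other and WT replicate 3 was the nearest WT library, and the difference of 0.24 ± 0.11 did not pass (adjusted p = 0.174, edgeR). The values of Mcm2 were 245 ± 17.5 in CML against 223 ± 28.3 CPM in WT (adjusted p = 0.491), and those of Mcm7 197 ± 6.12 in CML against 178 ± 26.5 CPM in WT (adjusted p = 0.449).

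The 6 subunits of the ring are loaded in equal number, so their levels were also set per kilobase of the longest annotated transcript. On that scale Mcm6 was at 112 ± 9.29 in CML and 110.3 ± 5.63 in WT CPM per kb. The other 5 subunits lay between 64.4 and 75.5 CPM per kb in CML and between 60.0 and 72.1 in WT. In WT the order ran Mcm7, Mcm5, Mcm2, Mcm3 and Mcm4, with steps smaller than the SDs up to Mcm3, and Mcm4 was at 72.1 ± 5.72. In CML it ran Mcm5, Mcm7, Mcm2, Mcm4 and Mcm3, with steps smaller than the larger SD of the neighbours up to Mcm4, and Mcm3 was at 75.5 ± 0.54. The loading factors were less abundant. Cdc6, the ATPase that joins the origin complex, was at 41.2, 39.8 and 36.9 CPM in the CML libraries and 34.9, 35.9 and 37.2 CPM in the WT libraries, with overlapping groups and a log2 fold change of 0.13 ± 0.11. Cdt1, which brings the helicase to the origin, was at 67.2, 64.4 and 82.1 CPM in the CML libraries and 59.3, 58.4 and 72.7 CPM in the WT libraries, replicate 3 being the highest of each group, with 0.17 ± 0.13. Orc1, the largest subunit of the origin recognition complex, was at 13.7 ± 0.289 in CML against 15.1 ± 0.964 CPM in WT (-0.14 ± 0.14, 95% interval -0.45 to 0.18) and at 4.56 ± 0.0960 in CML and 5.01 ± 0.320 in WT CPM per kb.

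None of the 4 genes that turn the loaded helicase into a working one was called by edgeR, DESeq2 or limma-voom, 0 had an unadjusted p below 0.05, and they did not share a direction. Gins2, a subunit of GINS, was at 35.2, 30.7 and 30.98 CPM in CML replicates 1, 2 and 3 and 23.7, 27.6 and 30.5 CPM in WT replicates 1, 2 and 3. All CML libraries were above all WT libraries, though CML replicate 2 and WT replicate 3 differed by less than 1 CPM, and the difference was 0.24 ± 0.13 (adjusted p = 0.236, edgeR). Its partner Gins1 was at 15.8 ± 2.20 in CML against 17.1 ± 0.416 CPM in WT (-0.12 ± 0.15), with overlapping groups. Mcm10, a factor needed for origin firing, had the lower level in every CML library: 18.2, 17.2 and 17.6 CPM in CML replicates 1, 2 and 3 and 20.5, 21.5 and 21.2 CPM in WT replicates 1, 2 and 3. The SD was close to 0.5 CPM in each group and the log2 difference was -0.25 ± 0.13, which did not pass (adjusted p = 0.204, edgeR). Cdc45, the partner of MCM and GINS in the active helicase, was at 75.1 ± 9.49 in CML against 73.7 ± 8.92 CPM in WT, and the log2 difference was 0.03 ± 0.13.

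**Figure D2:**
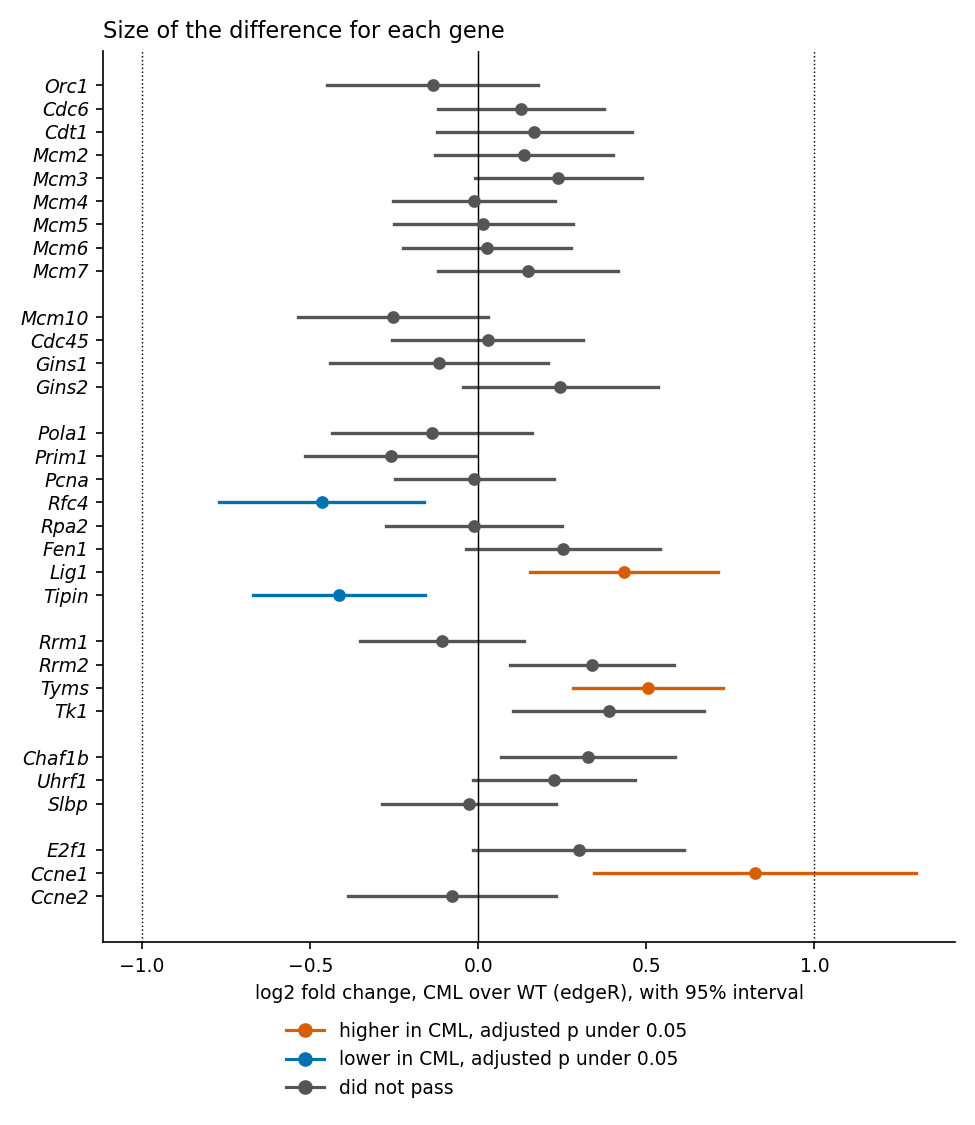
Fitted log2 fold change of CML over WT (x axis, points) with its 95% interval (bars) for each of the 31 genes (y axis), coloured by the edgeR call; dotted lines mark -1 and 1. The intervals of 30 genes lie between the dotted lines, and that of Ccne1 reaches 1.30.

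Of the 8 genes that work at the fork, 3 were called, 1 higher and 2 lower, beside 17.4% of all genes tested. With trends in GC content and length taken out, as described below, 0 of the 8 were called. Lig1 (chromosome 7, 13277283 to 13311433, GRCm38), the DNA ligase that seals Okazaki fragments, was at 45.4, 42.8 and 48.9 CPM in CML replicates 1, 2 and 3 and 31.1, 31.3 and 39.2 CPM in WT replicates 1, 2 and 3. Each CML library was above each WT library, and WT replicate 3 was the highest of its group. Lig1 rose 1.35-fold, a log2 difference of 0.43 ± 0.13 (95% interval 0.15 to 0.71, adjusted p = 0.0357, edgeR). Fen1, the nuclease that trims those fragments before ligation, was at 72.7, 62.2 and 68.4 CPM in CML replicates 1, 2 and 3 and 50.8, 52.5 and 67.5 CPM in WT replicates 1, 2 and 3, with CML replicate 2 below WT replicate 3. Its difference of 0.25 ± 0.13 did not pass (adjusted p = 0.219, edgeR).

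Tipin and Rfc4 fell. Tipin (chromosome 9, 64281581 to 64305424), which with Timeless steadies the fork and passes on checkpoint signals, was at 98.2, 88.1 and 81.7 CPM in CML replicates 1, 2 and 3 and 126, 124 and 107 CPM in WT replicates 1, 2 and 3. Every CML library was below every WT library, and the fitted level in CML was 0.750 of that in WT, a log2 difference of -0.41 ± 0.12 (95% interval -0.67 to -0.16, adjusted p = 0.0288, edgeR). Rfc4 (chromosome 16, 23113943 to 23127737), a subunit of the clamp loader that places the PCNA ring on DNA, was at 58.1, 44.9 and 47.1 CPM in CML replicates 1, 2 and 3 and 78.9, 69.2 and 59.4 CPM in WT replicates 1, 2 and 3. CML replicate 1 and WT replicate 3 were within 2 CPM of each other, the groups did not overlap, and the log2 difference was -0.47 ± 0.14 (95% interval -0.77 to -0.16, adjusted p = 0.0374, edgeR). An exon of Rfc4 overlaps Eif4a2 on the opposite strand, and Eif4a2 was at 475 ± 31.8 in CML against 586 ± 96.8 CPM in WT, several times the level of Rfc4. Whether the counting used strand is not given in the sources used here, so reads of the pair may have been mixed. The same holds for Lig1 with Zswim9, which was at 12.1 ± 1.39 in CML against 9.63 ± 1.24 CPM in WT. Eif4a2 differed by -0.30 ± 0.14 (adjusted p = 0.150, edgeR) and Zswim9 by 0.33 ± 0.17 (0.215), each in the direction of its overlapping gene. The part of such reads in the calls of Rfc4 and Lig1 was not tested. In all, 10 of the 31 genes overlap exons of another listed gene on the opposite strand.

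The remaining fork genes were not called. Pcna, the sliding clamp, was the most abundant of the 31 per kilobase, at 215 ± 8.68 in CML and 217 ± 13.4 in WT CPM per kb, and was at 341, 314 and 326 CPM in CML replicates 1, 2 and 3 and 345, 337 and 307 CPM in WT replicates 1, 2 and 3. The groups overlapped and the log2 difference was -0.01 ± 0.11 with an interval of -0.25 to 0.23. The copy Pcna-ps2 was counted at 170.0 ± 11.4 in CML against 225 ± 58.6 CPM in WT, so the division of reads between the pair makes both values uncertain. Prim1, the primase subunit that makes the RNA primer, was at 76.6, 71.5 and 79.1 CPM in CML replicates 1, 2 and 3 and 101, 90.1 and 81.03 CPM in WT replicates 1, 2 and 3. All CML libraries lay below all WT libraries, and its log2 difference of -0.26 ± 0.12 did not pass (adjusted p = 0.148, edgeR). Pola1, the catalytic subunit of the polymerase that extends that primer, was at 386, 341 and 358 CPM in the CML libraries and 465, 405 and 323 CPM in the WT libraries, so the WT libraries spread more than the groups differed (-0.14 ± 0.14). Rpa2, a subunit of the protein that coats single-stranded DNA, was at 56.03 ± 1.85 in CML against 56.6 ± 6.51 CPM in WT (-0.01 ± 0.12).

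Of the 4 nucleotide genes 1 was called, beside 17.4% of all genes tested, and Rrm2 and Tk1 lay just short of the threshold. Tyms (chromosome 5, 30058202 to 30073617), thymidylate synthase, which makes the thymidine nucleotide from the uridine one, was at 139, 131 and 137 CPM in CML replicates 1, 2 and 3 and 95.6, 95.5 and 95.5 CPM in WT replicates 1, 2 and 3. The 3 WT libraries lay within 0.2 CPM of each other, all CML libraries were above them, and Tyms rose 1.42-fold (0.50 ± 0.10, 95% interval 0.28 to 0.73, adjusted p = 0.00499, edgeR). Tk1, the salvage enzyme thymidine kinase, was at 74.3, 66.8 and 69.4 CPM in CML replicates 1, 2 and 3 and 47.7, 49.4 and 63.7 CPM in WT replicates 1, 2 and 3. The groups did not overlap, though CML replicate 2 and WT replicate 3 were close, and the difference of 0.39 ± 0.13 missed the threshold (adjusted p = 0.0594, edgeR).

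Ribonucleotide reductase, which turns ribonucleotides into deoxyribonucleotides, has a large subunit encoded by Rrm1 and a small subunit encoded by Rrm2. Rrm2 was at 153, 156 and 170.1 CPM in CML replicates 1, 2 and 3 and 138, 125 and 116 CPM in WT replicates 1, 2 and 3. Each CML library was above each WT library, and the log2 difference of 0.34 ± 0.11 missed the threshold (adjusted p = 0.0564, edgeR), whereas DESeq2 gave 0.33 with an adjusted p of 0.0462. Rrm1 was at 467, 471 and 485 CPM in CML replicates 1, 2 and 3 and 549, 507 and 478 CPM in WT replicates 1, 2 and 3, with overlapping groups and -0.11 ± 0.11. The ratio of Rrm2 to Rrm1 within a library, which scaling does not touch, was 0.327, 0.331 and 0.351 in CML and 0.250, 0.246 and 0.243 in WT. It thus averaged 0.336 ± 0.0129 and 0.247 ± 0.00361, without overlap. This ratio and the ratios of gene pairs given later were chosen after the values were seen and carry no test.

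Among the 3 genes of chromatin and histone supply none was called by edgeR, DESeq2 or limma-voom, and 1, Chaf1b, had an unadjusted p below 0.05. Chaf1b, a subunit of the chaperone that places histones behind the fork, was at 48.02, 44.5 and 47.01 CPM in CML replicates 1, 2 and 3 and 34.6, 35.4 and 41.4 CPM in WT replicates 1, 2 and 3, with every CML library above every WT library and a log2 difference of 0.33 ± 0.12 (adjusted p = 0.0795, edgeR). Uhrf1, which reads half-methylated DNA after replication and recruits the maintenance methyltransferase, was at 139, 137 and 139.6 CPM in CML replicates 1, 2 and 3 and 108, 118 and 129.98 CPM in WT replicates 1, 2 and 3. The CML libraries lay within 3 CPM of each other and above all WT libraries, with 0.23 ± 0.11 (adjusted p = 0.185, edgeR). Slbp, the protein that binds the stem-loop of histone mRNAs, was at 119 ± 10.04 in CML against 121 ± 12.9 CPM in WT with a log2 difference of -0.03 ± 0.12 and overlapping groups.

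At the G1/S switch, Ccne1 had the largest fold change of the 31 and Ccne2, the other cyclin E, was not called. Ccne1 (chromosome 7, 38097984 to 38107534) was at 8.29, 12.3 and 14.5 CPM in CML replicates 1, 2 and 3 and 6.21, 5.87 and 7.72 CPM in WT replicates 1, 2 and 3. CML replicate 1 was only just above WT replicate 3, CML replicates 2 and 3 were well above, and the groups did not overlap. Ccne1 rose 1.77-fold, a log2 difference of 0.82 ± 0.22 (95% interval 0.34 to 1.30, adjusted p = 0.0223, edgeR). Its lowest CML library, replicate 1, also had the lowest sum of mast cell and basophil markers of the 3 (2233 CPM, against 7781 in replicate 2 and 4907 in replicate 3), and the part of those cells was not tested. Ccne2 was at 58.9, 60.8 and 61.3 CPM in CML replicates 1, 2 and 3 and 63.7, 76.8 and 50.6 CPM in WT replicates 1, 2 and 3. The WT libraries spread on both sides of the CML libraries, and the difference was -0.08 ± 0.14 (adjusted p = 0.755, edgeR). Exons of Ccne2 overlap Ints8 on the opposite strand, so reads of that pair may have been mixed as well. Ints8 was at 104 ± 4.85 in CML against 169 ± 31.7 CPM in WT (-0.69 ± 0.14, adjusted p = 0.00437, edgeR). Per kilobase, Ccne2 was the more abundant of the pair in both groups, at 20.1 ± 0.413 in CML and 21.2 ± 4.37 in WT CPM per kb, against 5.84 ± 1.58 in CML and 3.30 ± 0.493 in WT for Ccne1. The ratio of Ccne1 to Ccne2 counts was 0.141, 0.201 and 0.237 in the CML libraries and 0.0975, 0.0764 and 0.153 in the WT libraries, so CML replicate 1 fell below WT replicate 3. E2f1, the activator that the retinoblastoma protein restrains, was at 23.7, 27.4 and 28.4 CPM in CML replicates 1, 2 and 3 and 20.1, 19.4 and 25.1 CPM in WT replicates 1, 2 and 3. CML replicate 1 was below WT replicate 3, and the difference of 0.30 ± 0.15 did not pass (adjusted p = 0.177, edgeR).

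The spread within WT was larger than within CML, with a median coefficient of variation over the 31 genes of 11.1% in WT and 5.57% in CML. WT replicate 3 stood apart from the other WT libraries: it was the highest WT library for 19 genes, the lowest for 11 and in the middle for 1. For 26 of the 31 it lay on the CML side of the mean of WT replicates 1 and 2. Noise in that mean moves WT replicate 3 and CML to the same side, and the share over all genes was not taken. The count therefore does not show a likeness of WT replicate 3 to CML. The distance of WT replicate 3 from that mean followed the base composition of the transcript, with a Pearson correlation of 0.91 across the 31 genes between the log2 distance and the GC content of the longest GENCODE transcript. Across the same genes the difference between WT replicates 1 and 2 had a correlation of -0.25 with GC content, and the log2 fold change of CML over WT one of 0.60. Over the 14619 tested genes with a transcript and with CML and WT means that added up to more than 2 CPM, the 3 values were 0.54, -0.16 and 0.16. These correlations run across genes, which share libraries and are not independent. The 13 genes with GC content above 50% had a median log2 fold change of 0.24 and the other 18 one of -0.05. For the 14619 genes the medians above and below were 0.12 and -0.12.

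**Figure D3:**
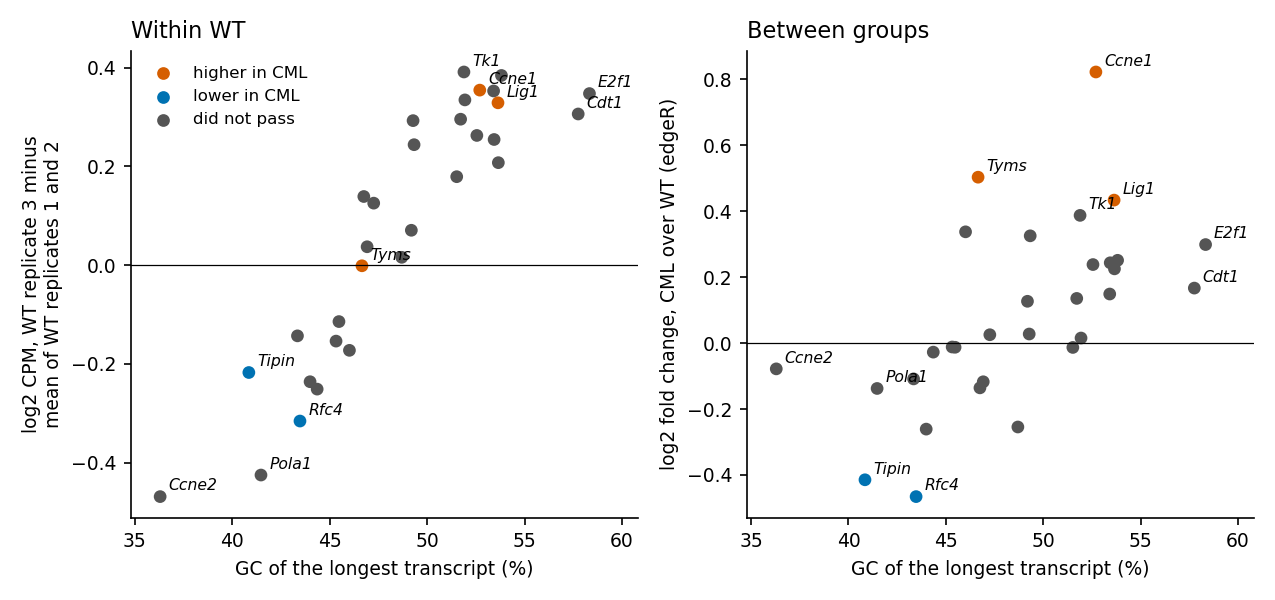
GC content of the longest transcript in percent (x axes) for the 31 genes, against the log2 distance of WT replicate 3 from the mean of WT replicates 1 and 2 (left) and against the fitted log2 fold change of CML over WT (right), with colours for the edgeR call. The left panel rises from below -0.4 for Ccne2 to above 0.3 for E2f1, while Tyms lies near 0 there and at 0.50 on the right.

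Because of that library, the counts of called genes and the list medians were set beside those without it and, as a choice made after seeing the data, beside those with the trend in GC content and length taken out. Without WT replicate 3, 13 of the 31 genes were called, 10 higher and 3 lower, beside 24.5% of all genes tested (4122, of which 2021 were higher and 2101 lower). The genes that became higher, with their log2 fold changes, were Tk1 (0.53), Chaf1b (0.41), E2f1 (0.42), Fen1 (0.39), Mcm3 (0.33), Uhrf1 (0.29) and Mcm7 (0.27), beside Tyms, Lig1 and Ccne1, and Prim1 (-0.34) joined Rfc4 and Tipin among those lower. Of these, Mcm7 had the adjusted p nearest the threshold (0.0480, edgeR). With the trend taken out, 5 were higher (Tyms, Ccne1, Rrm2, Tk1 and Chaf1b) and 0 lower, beside 10.8% and 8.58% of all genes. Then Lig1 was at 0.28 (adjusted p = 0.0574, edgeR), Rfc4 at -0.30 (0.0654) and Tipin at -0.24 (0.0621). Scaling by library totals alone gave 6 higher (Tyms, Lig1, Ccne1, Rrm2, Tk1 and Chaf1b) and 0 lower, beside 12.7% and 4.51% of all genes, and the median log2 fold change of all genes was then 0.094. Testing only genes with a mean of at least 50 counts gave 5 higher (Tyms, Lig1, Ccne1, Rrm2 and Tk1) and 2 lower, beside 10.7% and 8.20%.

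Tyms was the 1 gene of the 31 that was called under all 15 alternatives, with log2 fold changes from 0.47 to 0.60 and adjusted p-values from 2.73e-04 to 0.0398. The other calls were each lost in several alternatives, most of them with 1 library left out. Ccne1 lost its call when CML replicate 2 was left out (0.79, adjusted p = 0.0590, edgeR), when CML replicate 3 was (0.63, 0.123), and when WT replicate 1 (0.77, 0.0648) or 2 (0.74, 0.105) was. Lig1 lost it without CML replicate 1 (0.43, adjusted p = 0.0557, edgeR), 2 (0.48, 0.0598) or 3 (0.38, 0.145), and without WT replicate 1 (0.37, 0.125) or 2 (0.37, 0.182). Rfc4 lost it without CML replicate 2 (-0.39, adjusted p = 0.137, edgeR) or 3 (-0.42, 0.137), without WT replicate 1 (-0.37, 0.133) or 2 (-0.47, 0.114), and with library totals (-0.36, 0.0857). Tipin was lost without the same 4 libraries, at -0.40 (adjusted p = 0.0952, edgeR), -0.35 (0.139), -0.38 (0.0849) and -0.39 (0.128), and with library totals (-0.31, 0.0718). With the GC and length trends taken out, Lig1, Rfc4 and Tipin were lost as well. The removals leave fewer libraries to test with. Over all genes, 2820 were called as reported and 3169 without CML replicate 1. Without CML replicate 2 or 3 there were 1861 and 1771, and without WT replicate 1 or 2 there were 1857 and 1466.

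**Figure D4:**
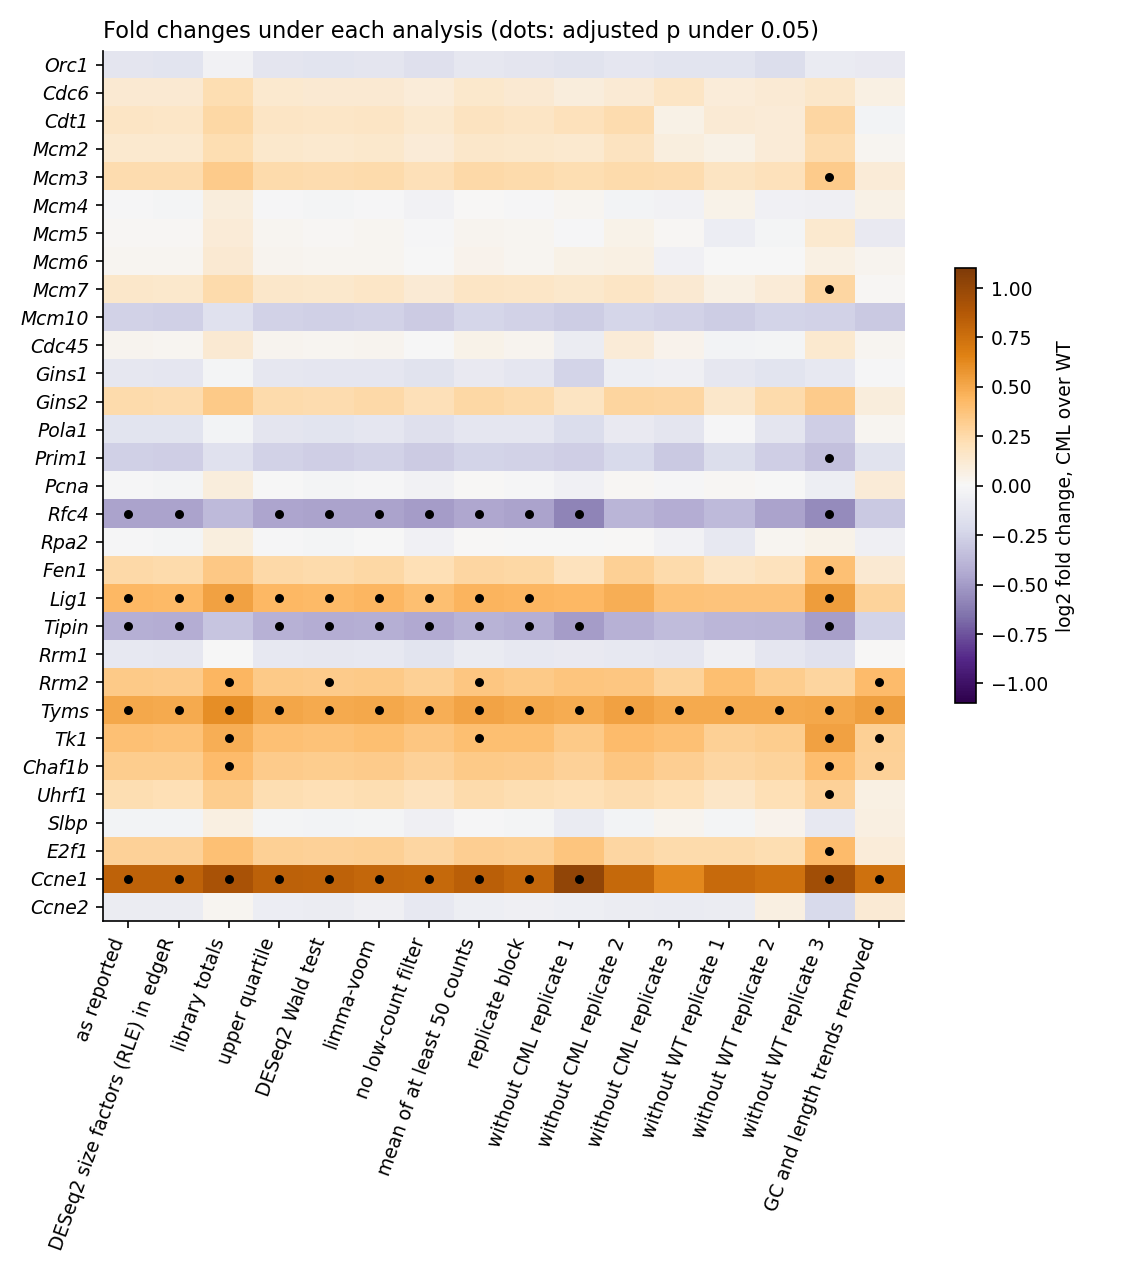
Log2 fold change of CML over WT (colour scale) for each of the 31 genes (y axis) as reported and under 15 alternative analyses (x axis); a dot marks an adjusted p below 0.05. The row of Tyms carries a dot in every column, and the column without WT replicate 3 has 13 dots.

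Other genes of the same processes were set beside the 31. Of 18 other origin genes 1 was called, beside 17.4% of all genes tested. This gene was Donson, a factor that helps assemble the active helicase. It was at 34.1, 36.8 and 33.1 CPM in CML replicates 1, 2 and 3 and 22.6, 22.98 and 22.9 CPM in WT replicates 1, 2 and 3, without overlap, and rose by 0.60 ± 0.12 on the log2 scale (adjusted p = 0.00413, edgeR), a call kept under all 15 alternatives (0.56 to 0.70). The median of that list was -0.08, but 0.02 with library totals. Without WT replicate 3 the list held 1 higher and 4 lower, beside 24.5% of all genes in either direction. Of 30 other fork genes, which include the remaining polymerase and clamp loader subunits, none was called by edgeR, DESeq2 or limma-voom, and the median was 0.03. At an unadjusted p below 0.05 there were 3 higher and 1 lower. The lowest p of the list was that of Rfc2, another clamp loader subunit, at 129.7 ± 7.48 in CML against 103 ± 11.8 CPM in WT (0.33 ± 0.12, adjusted p = 0.0697, edgeR). Without WT replicate 3 there were 2 higher and 2 lower, beside the same 24.5% of all genes.

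Of 20 other genes of nucleotide synthesis, 5 fell and none rose, beside 7.20% and 10.2% of all genes tested, and the median was -0.20. Atic, which carries out the last steps of purine synthesis, was at 205, 197 and 195 CPM in CML replicates 1, 2 and 3 and 324, 337 and 333 CPM in WT replicates 1, 2 and 3. The groups were far apart against their SDs of 5.12 and 6.75 CPM, and Atic fell by 0.74 ± 0.11 on the log2 scale (adjusted p = 4.48e-04, edgeR). Shmt1, the cytosolic enzyme that feeds one-carbon units into thymidylate and purine synthesis, was at 41.99 ± 6.14 in CML against 63.2 ± 4.89 CPM in WT (-0.59 ± 0.13, adjusted p = 0.00819). Both were called under all 15 alternatives. Ppat, the first committed enzyme of purine synthesis, was at 152 ± 12.3 in CML against 203 ± 14.2 CPM in WT (-0.42 ± 0.11, adjusted p = 0.0224), and Adss, of the AMP branch, at 190.01 ± 12.3 in CML against 256 ± 45.3 CPM in WT (-0.43 ± 0.14, adjusted p = 0.0475). Ppat lost its call with library totals (0.0624) and without CML replicate 2 (0.117) or 3 (0.0917) or WT replicate 2 (0.127). Adss lost it with library totals (0.0863), limma-voom (0.0586) and a mean of at least 50 counts (0.0542), and without CML replicate 2 (0.119) or 3 (0.175) or WT replicate 1 (0.170) or 2 (0.156). The fifth was Gmps, of the GMP branch, at -0.48 (adjusted p = 0.0489), named here after its values were seen. With library totals 2 of the 20 were lower, beside 4.51% of all genes. With limma-voom 3 were lower, beside 1080 of all 16221, and with the GC and length trends taken out 9, beside 8.58%.

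The E2F, retinoblastoma and cyclin list held 29 tested genes, of which 2 were higher and 2 lower, beside 10.2% and 7.20% of all genes tested. E2f2, an activator of the same class as E2f1, was at 11.7, 15.5 and 14.9 CPM in CML replicates 1, 2 and 3 and 5.32, 4.61 and 5.36 CPM in WT replicates 1, 2 and 3. Every CML library was more than 2 times the highest WT library, and the rise of 1.46 ± 0.18 on the log2 scale was called under all 15 alternatives (1.23 to 1.57; adjusted p = 1.72e-04 as reported, edgeR). The ratio of E2f2 to E2f1 was 0.528 ± 0.0354 in CML and 0.239 ± 0.0258 in WT. The D cyclins, which act with Cdk4 and Cdk6 before cyclin E, changed in opposite directions. Ccnd2 was at 213, 277 and 248 CPM in CML replicates 1, 2 and 3 and 376, 401 and 402 CPM in WT replicates 1, 2 and 3 and fell by 0.68 ± 0.12 on the log2 scale (adjusted p = 0.00229, edgeR), under all 15 alternatives. Ccnd3 was at 156 ± 7.85 in CML against 121 ± 12.6 CPM in WT and rose by 0.37 ± 0.12 (adjusted p = 0.0452), a call lost without a filter (adjusted p = 0.0816), with the GC trend taken out (0.172), without CML replicate 1 (0.0505), 2 (0.163) or 3 (0.133) and without WT replicate 1 (0.162) or 2 (0.195). Within a library, Ccnd3 over Ccnd2 was 0.693, 0.589 and 0.629 in CML and 0.295, 0.289 and 0.335 in WT. Lin54, of the complex that represses cell cycle genes in quiescence, was at 72.2 ± 2.62 in CML against 93.9 ± 9.89 CPM in WT (-0.38 ± 0.12, adjusted p = 0.0396), a call lost with library totals (0.110), with the GC trend taken out (0.0720), without CML replicate 1 (0.0597), 2 (0.0900) or 3 (0.146) and without WT replicate 1 (0.0892) or 2 (0.204).

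Of 7 inhibitors of the cyclin-dependent kinases, 6 had enough counts to be tested, 2 rose and none fell, with a median of 0.76. Cdkn1a, the p21 inhibitor induced by p53 among others, was at 62.3, 96.2 and 78.4 CPM in CML replicates 1, 2 and 3 and 36.3, 41.2 and 45.03 CPM in WT replicates 1, 2 and 3. All CML libraries were above all WT libraries, and Cdkn1a rose by 0.95 ± 0.16 on the log2 scale (adjusted p = 0.00133, edgeR), under all 15 alternatives (0.78 to 1.09). Cdkn2d, an inhibitor of Cdk4 and Cdk6, was at 39.5 ± 2.76 in CML against 26.6 ± 4.9996 CPM in WT (0.57 ± 0.15, adjusted p = 0.0160), a call lost without WT replicate 1 (adjusted p = 0.0619) or WT replicate 2 (0.101).

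Of 18 genes that answer stalled replication, 3 fell and none rose, beside 7.20% and 10.2% of all genes tested, and the median was -0.16. Without WT replicate 3, 6 were lower, beside 2101 of all 16850 genes tested. With library totals 2 were lower, beside 4.51% of all genes, and the median was -0.06. Atr, the kinase at the head of that response, was at 291, 261 and 318 CPM in CML replicates 1, 2 and 3 and 561, 493 and 355 CPM in WT replicates 1, 2 and 3, with WT replicate 3 the lowest of its group and still above all CML libraries (-0.70 ± 0.16, adjusted p = 0.0101, edgeR). Rad18, a ligase that marks Pcna at damaged forks, was at 90.3 ± 11.2 in CML against 132 ± 15.4 CPM in WT (-0.55 ± 0.13, adjusted p = 0.0107), and Chek1, the kinase that Atr activates, at 93.7 ± 10.4 in CML against 125 ± 13.02 CPM in WT (-0.41 ± 0.12, adjusted p = 0.0359). Atr was called under all 15 alternatives, Rad18 under all but that without CML replicate 2 (adjusted p = 0.0579), and Chek1 was lost under 6: library totals (0.0892), the GC trend taken out (0.0773), CML replicate 2 (0.129) or 3 (0.155) left out and WT replicate 1 (0.0666) or 2 (0.186) left out.

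Mitosis and G2/M genes were set beside the S phase genes in the same libraries. Of 23, 4 fell and none rose, beside 7.20% and 10.2% of all genes tested. The median was -0.26, against 0.03 for the 31. Ccnb1, cyclin B1, was at 308, 261 and 289 CPM in CML replicates 1, 2 and 3 and 414, 409.9 and 391 CPM in WT replicates 1, 2 and 3, without overlap, and fell by 0.50 ± 0.11 on the log2 scale (adjusted p = 0.00839, edgeR). Its kinase Cdk1 was at 132 ± 12.02 in CML against 180.4 ± 12.1 CPM in WT (-0.45 ± 0.12, adjusted p = 0.0183), Ube2c, of the mitotic ubiquitin pathway, at 24.3 ± 1.61 in CML against 34.97 ± 2.85 CPM in WT (-0.52 ± 0.13, adjusted p = 0.0121), and the spindle checkpoint kinase Ttk at 56.5 ± 2.44 in CML against 77.9 ± 14.97 CPM in WT (-0.46 ± 0.14, adjusted p = 0.0373). Without CML replicate 2 all 4 calls were lost, at adjusted p-values of 0.0616, 0.106, 0.0517 and 0.0954 in that order. Cdk1 also lost its call with library totals (0.0591) and without WT replicate 2 (0.0579), and Ttk with library totals (0.0780) and without CML replicate 3 (0.124) or WT replicate 1 (0.154) or 2 (0.108). Mki67, the usual mark of cycling cells, was at 51.6, 56.97 and 48.6 CPM in CML replicates 1, 2 and 3 and 96.1, 64.1 and 40.6 CPM in WT replicates 1, 2 and 3. WT ranged more than CML, with WT replicate 3 the lowest library, and the difference of -0.35 ± 0.28 was not called (adjusted p = 0.447, edgeR), whereas without WT replicate 3 it was -0.62 (0.0305). The list's median was -0.20 with the GC and length trends taken out (5 lower, beside 8.58% of all genes). It was -0.16 with library totals (2 lower, beside 4.51%) and -0.35 without WT replicate 3 (9 lower, beside 2101 of all 16850 genes). In the promoters of the mitosis and G2/M genes CCAAT stood in 16 of 19 (84.2%), TTTGAA or TTCGAA in 8 of 19 (42.1%) and an E2F word in 1 of 19 (5.26%). No test was made of the difference between the lists.

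**Figure D5:**
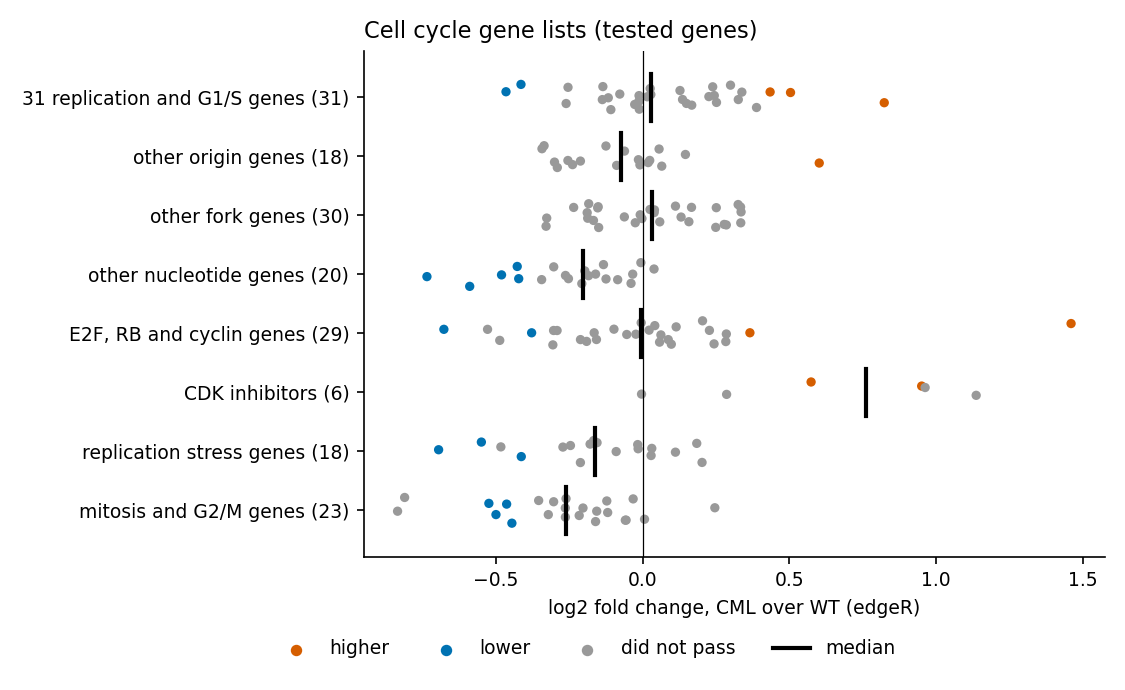
Fitted log2 fold change of CML over WT (x axis) of every tested gene of the 31 and of 7 other cell cycle lists (y axis, number of genes in brackets), coloured by the edgeR call, with a bar at each list's median. The medians are 0.03 for the 31 genes, -0.26 for the mitosis and G2/M genes and 0.76 for the 6 CDK inhibitors, of which 4 were not called.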

How the data were processed

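The authors deposited estimated counts per gene, 1 column for each of 6 libraries, with 29872 symbols, and 35.0% to 36.9% of a library's values were not exactly whole. The submitters' processing notes list Partek 8.0, STAR 2.7.3a and mm10 without roles. Nothing on the gene annotation, strand setting or treatment of shared reads is given in the sources used here. RNA came from an RNeasy Plus extraction and libraries from Nextera XT, per the labels' protocols. Groups and replicate numbers came from sample titles.

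Counts were rounded, filtered with filterByExpr (minimum count 10) and TMM-scaled, and tested with edgeR 4.0.16 (quasi-likelihood F test, two-sided, Benjamini-Hochberg over 16221 genes, threshold 0.05) in R 4.3.3. No pair of libraries agreed within sampling noise (smallest chi-square per degree of freedom 8.57). Intervals (95%) use the fit's standard errors. The code was tested on simulated data. Lengths, GC content and coordinates come from GENCODE M21 (GRCm38), promoters from RefSeq, first entry per gene. The members and lists were chosen with earlier results of these data known. Named were all 31 genes, up to 4 called genes of each other cell cycle list by adjusted p (the lowest p where none was called), Kit, Ly6a, Slamf1, Mki67 and Ccnb1. Alternatives were DESeq2 1.42.0, limma-voom 3.58.1, other scalings and filters, a replicate block, each library left out and, added after seeing the data, loess trends in GC content and length (span 0.3) removed.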

Additional observations from a re-analysis of the deposited data

How the results depend on the processing

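Of the log2 fold changes of the 31 genes over 15 alternatives, 388 kept their direction and side of the threshold, 22 lost a call, 17 gained one and 38 changed sign without a call in the reported analysis. 20 genes never changed sign. Over all genes, 1652 were higher and 1168 lower (58.6% higher), against 2065 and 732 (73.8% higher) with library totals, 1640 and 1358 (54.7%) with DESeq2, and 2021 and 2101 (49.0%) without WT replicate 3. Leaving out each library gave 1011 to 2021 higher and 455 to 2101 lower. Of the 31 genes, 6 were higher and 0 lower with library totals, 5 higher with a mean of at least 50 counts, and 5 higher and 0 lower with GC and length trends removed. Leaving out each library gave 1 to 10 higher and 0 to 3 lower. Their median log2 fold change, 0.03 as reported, was -0.0022 without a filter on low counts, 0.12 with library totals and 0.042 to 0.13 with a library left out. Why these values moved was not tested, beyond the smaller number of libraries.

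Signs changed for uncalled genes near 0. With library totals these were Ccne2 0.026, Mcm4 0.088, Pcna 0.089, Rpa2 0.082 and Slbp 0.074. With the trends removed they were Ccne2 0.12, Cdt1 -0.027, Mcm4 0.060, Mcm5 -0.098, Pcna 0.11, Pola1 0.019, Rrm1 0.00016 and Slbp 0.074. A mean of at least 50 counts gave Mcm4 0.0032, Pcna 0.0038 and Rpa2 0.0028, and no filter gave Cdc45 -0.0022, Mcm5 -0.015 and Mcm6 -0.0058. With a library left out, Cdc45 ran from -0.078 to 0.13, Mcm4 from -0.054 to 0.049, Mcm5 from -0.074 to 0.13, Mcm6 from -0.046 to 0.065, Pcna from -0.064 to 0.017, Rpa2 from -0.11 to 0.044, Slbp from -0.11 to 0.040, Ccne2 from -0.22 to 0.072 and Kit from -0.16 to 0.30.

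No sign of pairing by replicate number was seen. Same-numbered libraries had correlations of -0.03, -0.05 and 0.01 between their deviations from the group means, and no library correlated best with its own number. Such values cannot exclude a pairing in the design. With the replicate number as a block, 2807 genes were called (1607 higher, 1200 lower), and 3 of the 31 were higher and 2 lower, as without it.

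The lowest count of any of the 31 genes in a library was 93, for Ccne1 in WT replicate 2, and the counts of Ccne1 ran up to 232. The coefficient of variation of its CPM was 27.0% in CML and 14.9% in WT. The part of depth in that spread was not tested.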
